A study of Mus musculus with 12 samples.

Results

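The genes described here are 33 mouse genes of fatty acid synthesis, elongation, desaturation and glycerolipid assembly, chosen by symbol from a list of these pathways. All 33 were found among the 50559 genes of the deposited count tables. By role they comprise 3 regulators (Srebf1, Mlxipl and Thrsp), 7 genes of carbon and NADPH supply (Acly, Acss2, Me1, Slc25a1, Pklr, G6pdx and Pgd), 3 of chain synthesis (Acaca, Acacb and Fasn), 4 elongases (Elovl1, Elovl2, Elovl5 and Elovl6), 4 desaturases (Scd1, Scd2, Fads1 and Fads2), 2 acyl-CoA synthetases (Acsl3 and Acsl5) and 10 of glycerolipid assembly and remodelling (Gpam, Gpat3, Gpat4, Agpat2, Agpat3, Lpin1, Lpin2, Dgat1, Dgat2 and Pnpla3).

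RNA was sequenced from whole liver of C57BL/6N mice in 4 groups with 3 libraries each, labelled as biological replicates. The groups were a normal chow diet (NCD), a high-fat diet with 60% of its energy from fat (HFD), and the same high-fat diet with compound C1 (HFD+C1) or compound C2 (HFD+C2), each injected intraperitoneally at 5 mg/kg/day; diet and injections lasted 12 weeks. C1 and C2 are called CYP4A inhibitors in the series title, which would act on cytochrome P450 enzymes that hydroxylate fatty acids. The labels give neither the structures of C1 and C2, nor the age or sex of the mice, nor whether NCD and HFD mice received vehicle injections, nor whether a library came from a single liver. The tissue comparison is of bulk RNA, in which fewer cells of a type and less RNA per cell cannot be told apart.

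In the liver, de novo lipogenesis turns cytosolic citrate into acetyl-CoA, malonyl-CoA and then palmitate, which is elongated, desaturated, activated to its acyl-CoA and esterified stepwise onto glycerol 3-phosphate to give triglyceride. SREBP-1c, encoded by Srebf1, and ChREBP, encoded by Mlxipl, are the transcription factors best known for driving these genes, the former with insulin and sterol-linked signals and the latter with carbohydrate flux. Dietary polyunsaturated fat is known to restrain part of the programme, and the genes are also used to remodel fat that arrives from the diet.

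Levels are given as counts per 1000000 reads in genes (CPM) after TMM scaling, a correction for library composition, over the 12 libraries. The libraries held 4281210 (NCD replicate 2) to 32124248 (HFD replicate 1) reads in genes, so that 3 counts, taken as the floor, equalled 0.0996 to 0.633 CPM. Reads falling outside genes made up 58.2% of NCD replicate 1 and 47.1% of HFD+C2 replicate 1, and 27.3% to 40.7% of the others. These libraries also stood apart from their own groups: across 10133 genes, NCD replicate 1 correlated at 0.916 and 0.939 with the other NCD libraries (0.977 between those), and HFD+C2 replicate 1 at 0.953 and 0.951 with its group (0.987 between the others). Summed hepatocyte markers were lowest in NCD replicate 1, at 36318 CPM against 77893 and 83181 in the other NCD libraries and 93838 to 111757 in HFD. The listed markers were not uniform. Alb (10779 CPM), Ttr, Apoa1, Serpina1c and Fgb were at their lowest of the NCD libraries there. Apoc3 was at its highest, 3248 CPM against 1154 and 1607 CPM, and Serpina1c, at 5856 CPM, lay above the HFD libraries (3925 to 4503 CPM). Of the defining fat-cell markers, Adipoq, Lep, Plin1 and Retn were at or near 0 in all libraries, none above 0.774 CPM, while the fifth gene of that list, Pck1, which hepatocytes also express, stood at 208 to 1049 CPM.

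Promoter sequences are shown for 4 genes on which the comparisons below turn: Elovl5 and Mlxipl, which were called in opposite directions between the diets, and Fasn and Acacb, the members with the smallest p under C2. Each is the 250 bases before a RefSeq transcription start (build GRCm38.p6), written 5′ to 3′ on the gene's strand, with capitals marking an E-box (CACGTG, the core hexamer recognised by ChREBP and other helix-loop-helix factors) or a CCAAT box (CCAAT, or ATTGG when read on the opposite strand). The Elovl5 window lies at chr9:77917115-77917364 on the plus strand, the Mlxipl window at chr5:135089640-135089889 on the plus strand, the Fasn window at chr11:120824548-120824797 on the minus strand, and the Acacb window at chr5:114165268-114165517 on the plus strand, before a start that lies inside the annotated gene.
Elovl5: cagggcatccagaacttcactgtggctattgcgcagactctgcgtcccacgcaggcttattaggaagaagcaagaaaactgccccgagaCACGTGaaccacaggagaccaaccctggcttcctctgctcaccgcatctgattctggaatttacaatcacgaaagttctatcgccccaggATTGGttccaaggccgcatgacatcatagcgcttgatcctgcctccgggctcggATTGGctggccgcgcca
Mlxipl: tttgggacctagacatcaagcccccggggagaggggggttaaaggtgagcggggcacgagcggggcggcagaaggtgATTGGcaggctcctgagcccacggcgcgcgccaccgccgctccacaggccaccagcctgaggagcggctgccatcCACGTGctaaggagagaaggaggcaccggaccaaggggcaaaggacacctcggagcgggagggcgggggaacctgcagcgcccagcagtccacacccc
Fasn: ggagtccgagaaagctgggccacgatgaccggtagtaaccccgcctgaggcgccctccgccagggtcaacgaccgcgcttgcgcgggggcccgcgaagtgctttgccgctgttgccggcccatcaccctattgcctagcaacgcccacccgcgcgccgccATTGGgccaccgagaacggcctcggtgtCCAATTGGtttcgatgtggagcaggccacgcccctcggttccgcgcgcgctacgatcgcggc
Acacb: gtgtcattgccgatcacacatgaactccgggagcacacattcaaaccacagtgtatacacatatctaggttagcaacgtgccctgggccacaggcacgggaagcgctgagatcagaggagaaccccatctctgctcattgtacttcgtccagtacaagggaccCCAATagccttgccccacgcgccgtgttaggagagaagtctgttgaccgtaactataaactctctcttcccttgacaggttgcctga

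Promoters were found in the RefSeq table for 27 of the 33 members, 38 windows in all because some genes have several starts. An E-box occurred in 4 of these windows (10.5%, against 6.02% of all 32851 promoter windows), in Elovl5, Mlxipl, Slc25a1 and Lpin2. A CCAAT box on either strand occurred in 18 (47.4%, against 33.8% of all), including 2 boxes in the Elovl5 window and 3 in the Fasn window, of which the last pair share letters. A sterol-type element (TCACNCCAC, either strand) was found in 1 window, before an internal Mlxipl start (2.63%, against 1.05% of all). A match describes letters in a window and is not evidence of a bound site.

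Scd1, the stearoyl-CoA desaturase that makes oleate, dominated the group in every library. It took 28.7% to 59.7% of the reads of the 33 genes, which together made up 0.471% to 1.2% of reads in genes. Scaled by exon length (CPM per kilobase, GENCODE M21 exons), Scd1 ranked first in all 4 groups, at 1028 ± 212 (SD, n = 3) in NCD, 1125 ± 343 in HFD, 822 ± 466 in HFD+C1 and 880.0 ± 257 in HFD+C2. Next in NCD came Thrsp at 213 ± 61.9 and Me1 at 103 ± 42.9 CPM per kilobase, and next in HFD came Elovl5 at 184 ± 32.6 and Thrsp at 138 ± 26.7. At the bottom were G6pdx, Scd2 and Pnpla3, each under 1 CPM per kilobase in NCD and HFD. Scd1 and Scd2 are close paralogs, and how reads shared by paralogs were assigned is not given in the sources used here. Exons of 15 members overlap those of another gene, for 5 of them on the same strand (among these Acsl3 with Utp14b, Srebf1 with Mir6922 and Scd2 with Mir5114), so their counts may hold some reads of the neighbour.

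The comparison of HFD with NCD asks how the lipogenic genes stood after 12 weeks of fat-rich food. They moved in both directions: Elovl5 and Fads2, which act on polyunsaturated fatty acids, rose, while Mlxipl (ChREBP) and Acsl3, an acyl-CoA synthetase of the endoplasmic reticulum and lipid droplets, fell. These were 4 of 33 members at an adjusted p under 0.05 (edgeR quasi-likelihood test), with 2 higher and 2 lower; across all 13864 genes tested 6.03% were called, 2.59% higher and 3.44% lower. At an unadjusted p under 0.05 stood 19 members, 11 higher and 8 lower in HFD, against 28.9% of all genes (13.0% higher and 15.9% lower). The median log2 change of the members was 0.15, with 18 above and 15 below 0, beside a median of -0.02 for all genes tested. It was 0.080 without NCD replicate 1 (16 above, 16 below 0) and 0.29 without NCD replicate 2 (20 above, 13 below). The HFD and NCD libraries did not overlap for 17 members (8 higher, 9 lower in HFD), where 37.1% of all genes did not overlap (18.2% higher and 18.9% lower).

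Elovl5, the elongase of polyunsaturated fatty acids whose promoter is printed above, measured 363, 340.0 and 337 CPM in NCD and 657, 530.0 and 760.0 CPM in HFD. The NCD libraries were tightly grouped and every HFD library lay above them. Its log2 change was 0.93 (SE 0.20), a 1.90-fold higher level in HFD, with an adjusted p of 0.0397. Fads2, a front-end desaturase of the same pathway, measured 188, 265 and 219 CPM in NCD against 389, 393 and 363 CPM in HFD. The groups again did not overlap, and the log2 change was 0.79 (SE 0.19, 1.73-fold, adjusted p = 0.0485). Fads1, the other front-end desaturase, stood at 160.0, 231 and 221 CPM in NCD and 222, 224 and 224 CPM in HFD, groups that overlapped (log2 change 0.15, adjusted p = 0.630).

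Mlxipl, the carbohydrate-responsive regulator, measured 121, 92.0 and 91.0 CPM in NCD and 58.2, 59.1 and 60.3 CPM in HFD. The 3 HFD libraries agreed closely and lay below every NCD library. Its log2 change was -0.75 (SE 0.18, a 1.69-fold lower level in HFD, adjusted p = 0.0460). Of the other regulators, Srebf1 measured 118, 196 and 120.0 CPM in NCD and 256, 194 and 222 CPM in HFD, with overlapping groups and a log2 change of 0.65 (SE 0.25, adjusted p = 0.129). Thrsp, a nuclear protein induced along with lipogenesis, ran the other way, from 322 to 591 CPM in NCD and from 234 to 338 CPM in HFD, again overlapping (log2 change -0.61, adjusted p = 0.169). The 2 transcription factors of the group thus had estimates of opposite sign, of which the Mlxipl one passed the test.

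**Figure D1:**
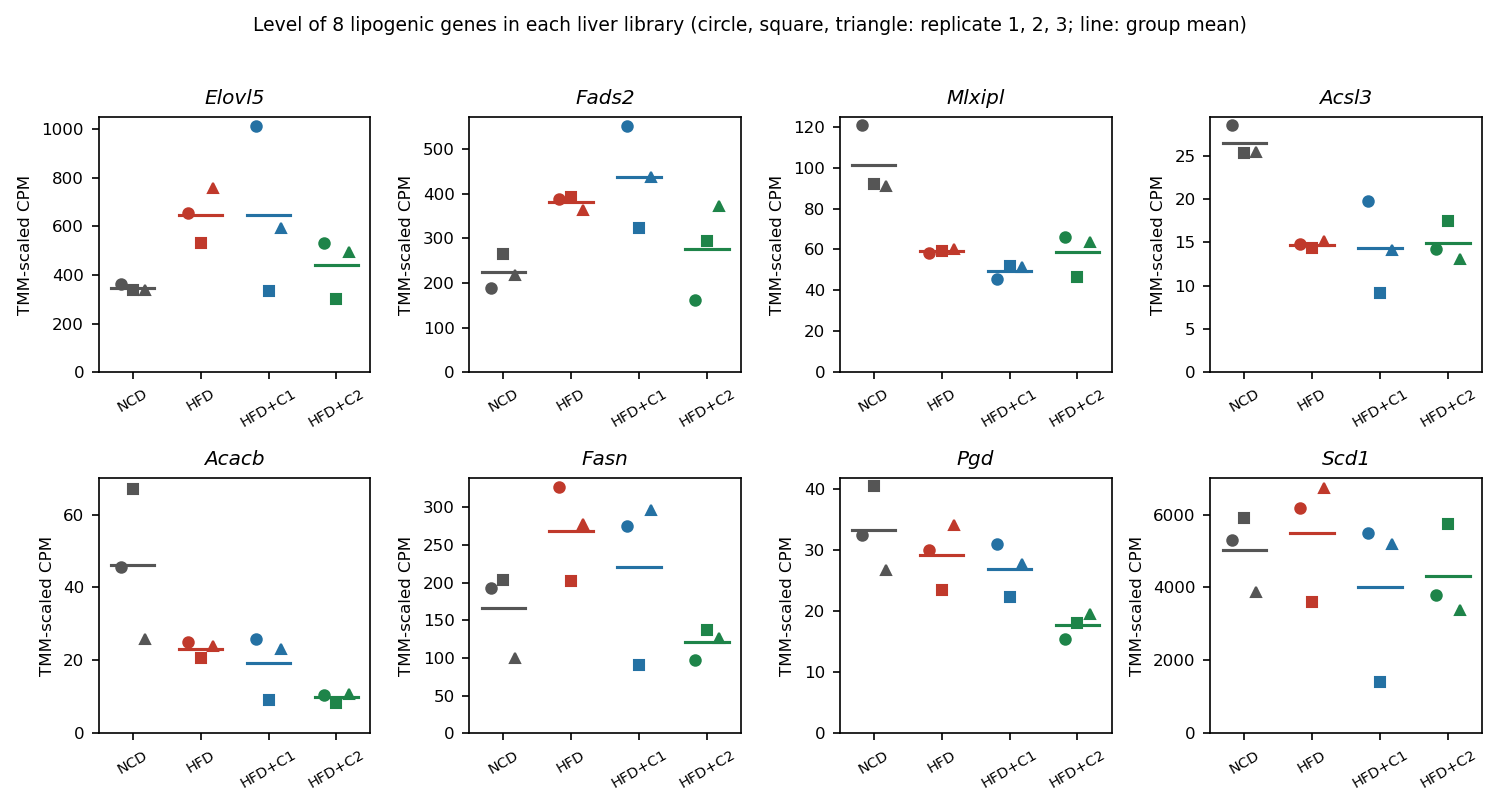
Level of 8 lipogenic genes in each of the 12 liver libraries (vertical axis, TMM-scaled CPM from 0; horizontal axis, group; circle, square and triangle are replicates 1, 2 and 3, and the line is the group mean). Elovl5 and Fads2 lie higher and Mlxipl and Acsl3 lower in every HFD library than in every NCD library, the 3 HFD+C2 libraries of Acacb lie between 8.21 and 10.9 CPM, and HFD+C1 replicate 2 is the lowest library of Scd1 at 1397 CPM.

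Among the genes of carbon and NADPH supply, 0 of 7 passed the edgeR test between the diets, against 6.03% of all genes. An unadjusted p under 0.05 and a call by DESeq2 were found for 4 (Acly, Acss2, Me1 and Pklr). Over all 13864 genes, 28.9% had such a p and DESeq2 called 2298. Acly, which cleaves cytosolic citrate to acetyl-CoA, measured 175, 202 and 149 CPM in NCD and 106, 125 and 103 CPM in HFD (log2 change -0.63, adjusted p = 0.0747). Acss2, which makes acetyl-CoA from acetate, had a log2 change of -1.01 (adjusted p = 0.0895), and Me1, the malic enzyme that supplies NADPH, one of -0.99 (adjusted p = 0.106). For these 3 genes every HFD library lay below every NCD library. Pklr, the liver pyruvate kinase and a known target of ChREBP, went the opposite way, at 64.9, 156 and 87.0 CPM in NCD and 219, 198 and 217 CPM in HFD (log2 change 1.07, adjusted p = 0.0714). Slc25a1, the mitochondrial citrate carrier, and G6pdx and Pgd, the NADPH-producing enzymes of the pentose phosphate pathway, had log2 changes of -0.18, 0.12 and -0.16 with overlapping groups.

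The enzymes of chain synthesis had mixed estimates, and 0 of 3 passed the edgeR test. All 3 had an unadjusted p under 0.05, against 28.9% of all genes. DESeq2 called Acaca and Acacb, beside 2298 of all 13864 genes. Acaca, the cytosolic acetyl-CoA carboxylase, measured 24.2, 46.8 and 29.7 CPM in NCD and 65.5, 48.6 and 66.7 CPM in HFD (log2 change 0.88, adjusted p = 0.0818). Acacb, the mitochondria-associated isoform whose malonyl-CoA restrains fatty acid import for oxidation, measured 45.7, 67.1 and 25.9 CPM in NCD and 25.1, 20.6 and 23.9 CPM in HFD (log2 change -0.96, adjusted p = 0.0960). The isoforms therefore had estimates of opposite sign, each with groups that did not overlap. Fasn, the fatty acid synthase, measured 166 ± 56.7 CPM (SD, n = 3) in NCD, replicate 3 being lowest, and 327, 202 and 278 CPM in HFD, which overlapped (log2 change 0.72, adjusted p = 0.159).

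Elovl6, which extends palmitate, had a log2 change of 0.71 (adjusted p = 0.105), and Elovl1 and Elovl2 had log2 changes of -0.10 and 0.31. Scd1 measured 5299, 5907 and 3888 CPM in NCD and 6177, 3589 and 6738 CPM in HFD, so that the most abundant member differed by less than its spread (log2 change 0.15, 95% interval -0.52 to 0.82, adjusted p = 0.765). Scd2, a desaturase isoform that is low in liver, was at 1.69 to 3.37 CPM in NCD and 1.10 to 1.71 CPM in HFD (log2 change -0.84, adjusted p = 0.197).

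Acsl3 measured 28.5, 25.3 and 25.4 CPM in NCD and 14.8, 14.3 and 15.1 CPM in HFD, with little spread in either group. Its log2 change was -0.82 (SE 0.16, a 1.77-fold lower level in HFD), with the smallest adjusted p among the members, 0.0348. Acsl5, the more abundant synthetase, measured 396, 496 and 456 CPM in NCD and 353, 346 and 379 CPM in HFD (log2 change -0.30, adjusted p = 0.287). Both synthetases were lower in every HFD library than in any NCD library, by estimates of unequal size.

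In glycerolipid assembly 0 of 10 members passed the edgeR test, against 6.03% of all genes. An unadjusted p under 0.05 was found for 5 (4 higher, 1 lower), against 28.9% of all genes (13.0% higher and 15.9% lower). DESeq2 called 3 (Agpat2, Agpat3 and Gpat4), beside 2298 of all 13864 genes. Estimates split within enzyme families. Gpat4, a glycerol-3-phosphate acyltransferase of the endoplasmic reticulum, measured 436, 303 and 249 CPM in NCD and 188, 177 and 193 CPM in HFD (log2 change -0.80, SE 0.23, adjusted p = 0.0688). Gpam, the mitochondrial enzyme of the same step, had a log2 change of -0.05, and Gpat3 one of 0.66, both with overlapping groups. At the next step, Agpat2 measured 31.0, 129 and 124 CPM in NCD and 309, 249 and 242 CPM in HFD, the highest estimate among the members (log2 change 1.52, SE 0.46, adjusted p = 0.0794). NCD replicate 1 was far below the other NCD libraries for this gene. Agpat3 had a log2 change of 0.62 (adjusted p = 0.0833). The phosphatidate phosphatases Lpin1 and Lpin2 had log2 changes of 0.76 and 0.29 with overlapping groups.

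Dgat1 and Dgat2 catalyse the last step of triglyceride synthesis. Dgat1 measured 4.64, 5.48 and 6.78 CPM in NCD and 9.76, 9.17 and 8.13 CPM in HFD (log2 change 0.69, adjusted p = 0.0979). Dgat2, which was far more abundant, measured 131, 263 and 207 CPM in NCD and 237, 238 and 212 CPM in HFD (log2 change 0.21, adjusted p = 0.611). Pnpla3, a lipid-droplet protein known from inherited fatty liver in humans, was close to the floor, with 24, 2 and 11 counts in the NCD libraries and 12, 7 and 10 in HFD. Its estimate of -1.47 (SE 0.74, adjusted p = 0.220) rested largely on the 24 counts of NCD replicate 1, and in the HFD+C1 and HFD+C2 libraries it had 3 or 4 counts each.

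The diet calls changed when single libraries were left out, while the estimates of the called members kept their sign. Over the libraries left out in turn, Acsl3 ranged from -0.84 to -0.78 and Mlxipl from -0.82 to -0.62. Elovl5 ranged from 0.81 to 1.06 and Fads2 from 0.66 to 0.95. Without HFD replicate 1, 2 or 3, 0 members were called by edgeR (13, 15 and 13 at an unadjusted p under 0.05), while calls over all genes went from 836 to 23, 131 and 25; without NCD replicate 3 only Acacb was, lower in HFD. Without NCD replicate 1, the library with the lowest hepatocyte marker sum, 14 of 32 members were called, 8 higher and 6 lower. Elovl5, Fads2, Mlxipl and Acsl3 were among them, and 1838 of all 13412 genes tested were called. Summed stellate cell markers were 37.6 to 44.5 CPM in NCD and 57.2 to 60.9 CPM in HFD, with 2 of 5 markers called higher, the collagens Col1a1 and Col3a1. The others were split: Lrat had means of 8.17 CPM in NCD and 11.8 CPM in HFD, Des 7.18 and 6.42 CPM, and Reln 16.6 and 14.6 CPM. The part of hepatocytes or stellate cells in the members' values was not tested. Scaling by total gene count, which moves the median log2 change of all genes from -0.02 to -0.24, gave 5 members called, all lower (Acly, Acsl3, Acss2, Gpat4 and Mlxipl), beside 241 of all genes higher and 864 lower, with Elovl5 at an adjusted p of 0.0560 and Fads2 at 0.0743; it turned the estimates of Fads1, G6pdx and Scd1 and the members' median, to -0.079. DESeq2 called 13 members, 6 higher and 7 lower, beside 2298 of 13864 genes. With all 12 libraries in one fit Elovl5 (adjusted p = 0.0670) and Fads2 (0.0645) were not called. Without the filter on low counts Acsl3 (0.0740) and Mlxipl (0.115) were not, while 12 members were called higher and 3 lower, beside 1742 and 2751 of all 35374 genes. With the replicate number as a block in edgeR, 0 members and 483 genes were called. The adjusted p was then 0.0626 for Acsl3 and for Elovl5, 0.0764 for Mlxipl and 0.074 for Fads2.

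**Figure D2:**
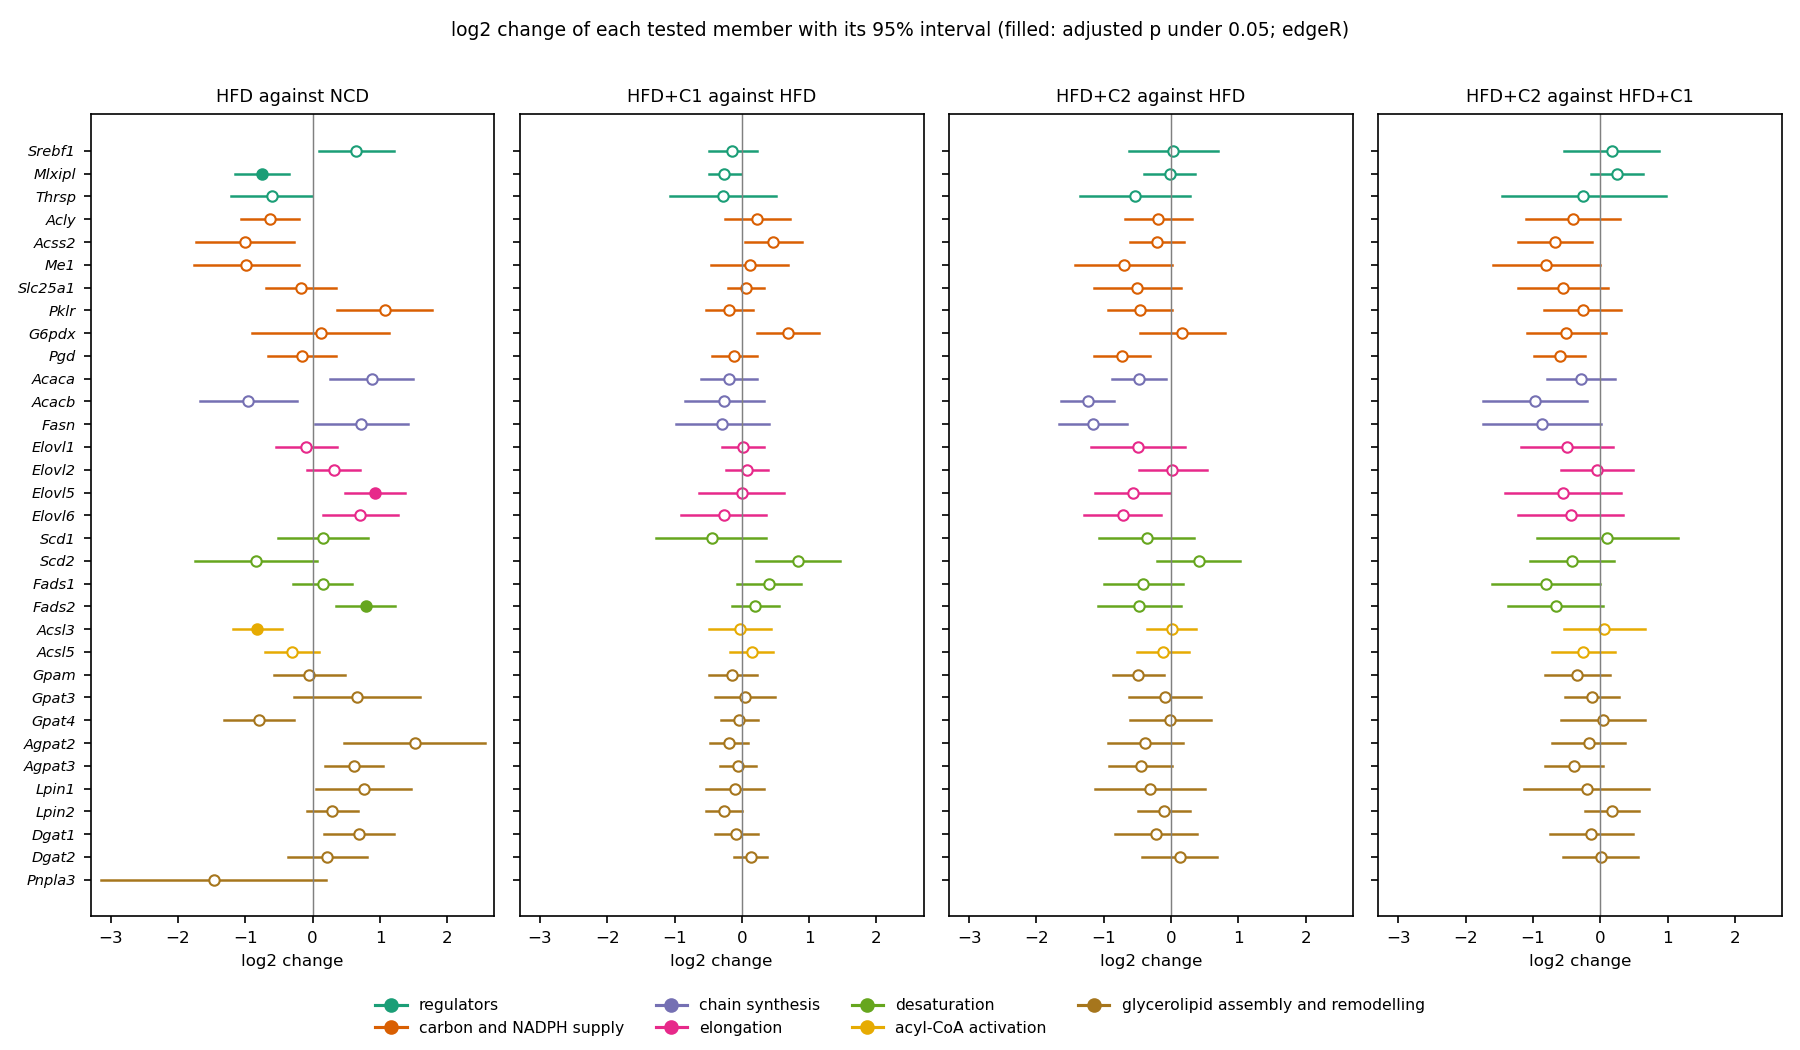
log2 change (horizontal axis) of each tested member, grouped by role, in the 4 comparisons, with its 95% interval from edgeR; filled circles have an adjusted p under 0.05. Filled circles occur only between the diets (Mlxipl, Elovl5, Fads2 and Acsl3), and under C2 against HFD 26 of 32 estimates lie below 0, with Acacb at -1.24 and Fasn at -1.16.

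The comparison of HFD+C1 with HFD asks what compound C1 did to these genes on the high-fat diet. No member passed the test: edgeR called 0 of 32 (0.0524% of all 13358 genes tested were called), as did DESeq2, and 5 had an unadjusted p under 0.05, 3 higher and 2 lower, against 7.75% of all genes (3.26% higher and 4.48% lower). Pnpla3 fell under the mean of 10 counts required for testing. The members' median log2 change was -0.05, with 13 above and 19 below 0, beside 0.01 for all genes. The libraries did not overlap for 4 members (2 higher, 2 lower), against 12.4% of all genes (6.36% higher and 5.99% lower).

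G6pdx, the first enzyme of the pentose phosphate pathway, had the smallest p of these. It measured 2.16, 2.83 and 2.11 CPM in HFD and 3.67, 3.93 and 3.88 CPM in HFD+C1, every HFD+C1 library being above every HFD library (log2 change 0.69, SE 0.21, adjusted p = 0.402). Scd2, also of low abundance, measured 1.46, 1.10 and 1.71 CPM in HFD and 1.89, 2.42 and 3.35 CPM in HFD+C1 (log2 change 0.83, SE 0.29, adjusted p = 0.462). For both genes the HFD+C1 levels were higher without overlap, at a few CPM.

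Acss2 measured 36.1, 41.3 and 31.7 CPM in HFD and 63.6, 33.3 and 54.3 CPM in HFD+C1, which overlapped (log2 change 0.47, SE 0.19, adjusted p = 0.584; 0.26 without HFD+C1 replicate 1 and 0.70 without replicate 2). Mlxipl measured 45.6, 51.9 and 51.2 CPM in HFD+C1, all below its 3 HFD libraries (log2 change -0.26, SE 0.11, adjusted p = 0.615). Lpin2 measured 73.8, 84.5 and 80.0 CPM in HFD and 68.9, 57.0 and 72.3 CPM in HFD+C1, also without overlap (log2 change -0.27, SE 0.12, adjusted p = 0.644; -0.17 without HFD+C1 replicate 2).

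HFD+C1 replicate 2 was unlike its group in these genes. It was the lowest of the 3 HFD+C1 libraries for 25 of 32 members (78.1%), whereas it was lowest for 31.9% of all 13466 genes compared. Scd1 measured 1397 CPM there against 5485 and 5185 CPM in the other HFD+C1 libraries, Fasn 90.4 against 275 and 296 CPM, and Thrsp 83.7 against 288 and 376 CPM. Elovl5 measured 333 CPM there against 1015 and 595 CPM. The lipogenic genes together made up 0.471% of reads in genes in this library, against 1.14% and 1.03% in replicates 1 and 3. Its hepatocyte marker sum, 116918 CPM, lay near those of the other HFD+C1 libraries, 115761 and 106103 CPM, and 28.7% of its reads fell outside genes. Summed Kupffer cell and macrophage markers were 214 to 278 CPM in HFD+C1 (278 in replicate 2) and 130.0 to 169 CPM in HFD; edgeR called 0 of 5 of these markers and DESeq2 4 (Adgre1, Cd5l, Clec4f and Vsig4), higher with C1. Their part in the members' values was not tested.

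Without HFD+C1 replicate 2 the members' median log2 change under C1 was 0.082, with 25 of 32 above 0, and the test still called 0. The estimate of Scd1 then went from -0.45 to -0.046 and that of Fasn from -0.29 to 0.085. G6pdx kept its size at 0.67 and Scd2 at 0.86. Without HFD+C1 replicate 1 the balance went the other way, to 7 above and 25 below 0 with a median of -0.13, and without HFD replicate 2 it was 10 above and 22 below. The balance of estimates above and below 0 under C1 thus changed with single libraries of either group.

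**Figure D3:**
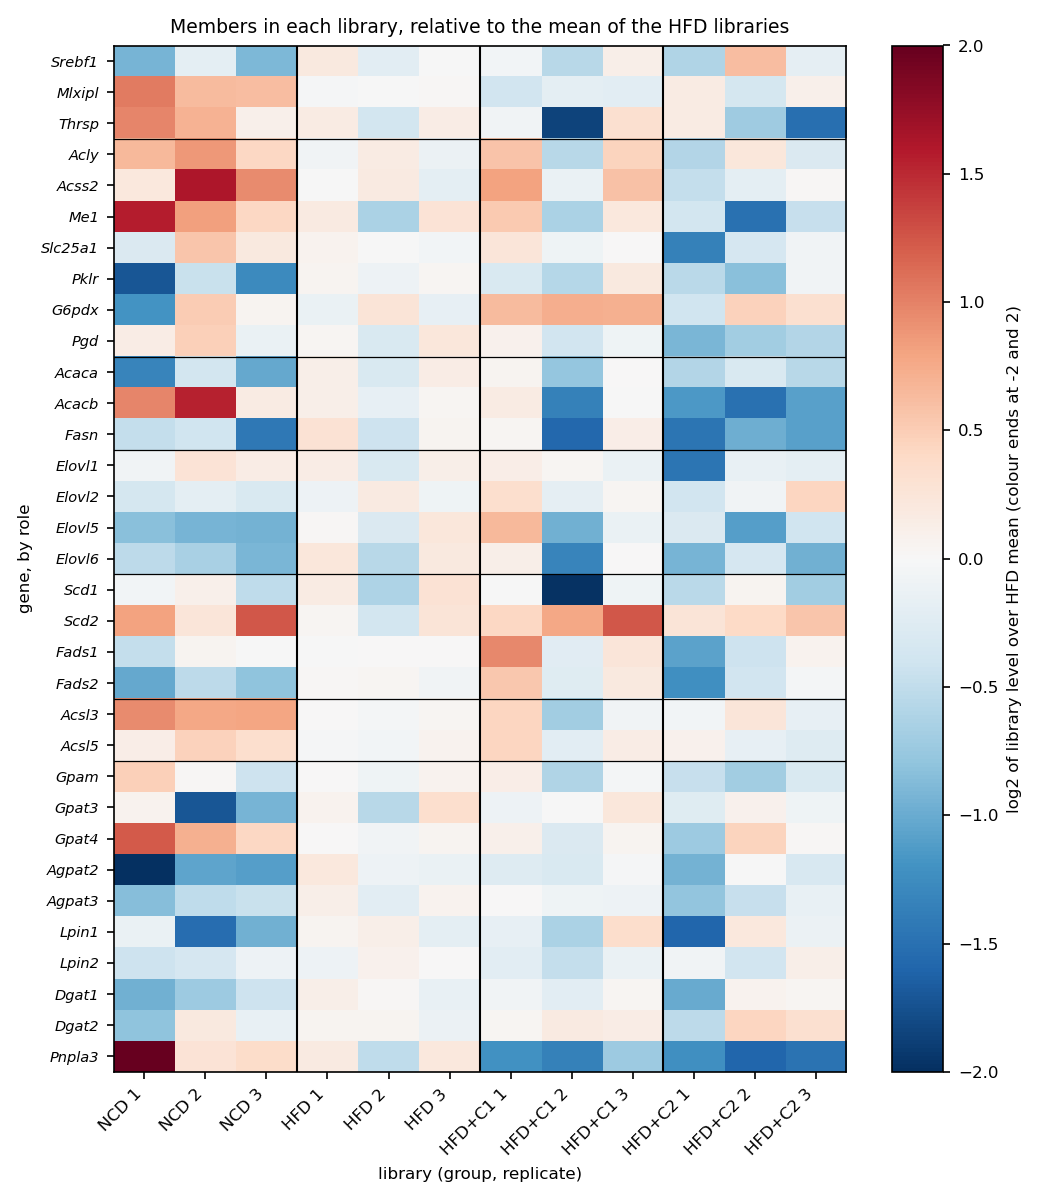
log2 ratio of each library's TMM-scaled CPM to the mean of the 3 HFD libraries, for the 33 members (rows, by role) in the 12 libraries (columns); red is higher and blue lower, and the colours end at -2 and 2. HFD+C1 replicate 2 is blue across most rows, being the lowest HFD+C1 library in 25 of 32 members, and Acacb and Fasn are blue in all 3 HFD+C2 libraries.

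The comparison of HFD+C2 with HFD puts the same question for compound C2. Most lipogenic genes had lower estimates with C2, most of all the malonyl-CoA-producing carboxylase Acacb and the synthase Fasn, but edgeR called 0 of 32 after adjustment (DESeq2 called 2, and 35 of all genes), where edgeR called 3 of all 13503 genes tested (0.0222%). At an unadjusted p under 0.05 stood 7 members, all lower, against 6.89% of all genes (3.19% higher and 3.70% lower). Of the 32 estimates 26 were below 0 (81.2%, against 47.8% of all genes tested), and their median was -0.37, beside 0.02. The libraries did not overlap for 6 members, all lower in HFD+C2, against 13.6% of all genes (7.01% higher and 6.64% lower). The members share libraries and some regulators, so these counts do not measure 32 independent changes.

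Acacb measured 25.1, 20.6 and 23.9 CPM in HFD and 10.5, 8.21 and 10.9 CPM in HFD+C2. Every HFD+C2 library was below every library of HFD and NCD, while HFD+C1 replicate 2, at 9.05 CPM, lay within the HFD+C2 range. Its log2 change was -1.24 (SE 0.17, a 2.36-fold lower level with C2, adjusted p = 0.135). DESeq2, limma voom with library weights, and edgeR without the filter on low counts or without HFD+C2 replicate 1 called it, with adjusted p of 1.05e-05, 0.00228, 4.24e-06 and 0.00860; over all alternatives the adjusted p reached 0.998, and the estimate stayed between -1.35 and -1.12.

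Fasn measured 327, 202 and 278 CPM in HFD and 97.6, 137 and 127 CPM in HFD+C2, also without overlap. Its log2 change was -1.16 (SE 0.23, 2.24-fold lower with C2, adjusted p = 0.606). DESeq2, limma voom with library weights and edgeR without the filter called it lower, with adjusted p of 0.00132, 0.0118 and 0.000112. Acaca, the third enzyme of chain synthesis, measured 65.5, 48.6 and 66.7 CPM in HFD and 40.1, 48.8 and 41.2 CPM in HFD+C2, overlapping by a small margin (log2 change -0.48, adjusted p = 0.695). All 3 chain-synthesis genes thus had estimates below 0, with a median of -1.16.

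Pgd, an NADPH source, measured 29.9, 23.5 and 34.1 CPM in HFD and 15.5, 18.1 and 19.5 CPM in HFD+C2 (log2 change -0.73, SE 0.18, adjusted p = 0.695). Gpam, which begins glycerolipid synthesis, measured 158, 148 and 164 CPM in HFD and 114, 96.6 and 127 CPM in HFD+C2 (log2 change -0.49, SE 0.17, adjusted p = 0.695). Both were lower in every HFD+C2 library. Elovl6 measured 51.0, 29.4 and 49.8 CPM in HFD and 22.9, 34.4 and 22.2 CPM in HFD+C2, with overlap (log2 change -0.72, SE 0.25, adjusted p = 0.695). Elovl5 had a log2 change of -0.57 and an adjusted p of 0.695, its HFD+C2 libraries of 530.0, 301 and 493 CPM lying at or below the lowest HFD library.

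By role, 6 of 7 genes of carbon and NADPH supply, 3 of 4 elongases, 3 of 4 desaturases and 8 of 9 tested glycerolipid genes had estimates below 0, with medians of -0.46, -0.53, -0.39 and -0.22. Of the regulators, Srebf1 stood at 0.03 (-0.0059 with total-count scaling) and Mlxipl at -0.02, with 95% intervals of -0.63 to 0.69 and -0.40 to 0.36, while Thrsp stood at -0.54 (-1.36 to 0.28), further from 0 than the members' median. Dgat2 had an estimate of 0.13 (-0.43 to 0.68) and Gpat4 one of -0.01 (-0.61 to 0.59).

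HFD+C2 replicate 1, which stood apart above, was the lowest HFD+C2 library for 20 of 32 members (62.5%, against 42.5% of all genes). HFD+C2 replicate 1 also had the highest summed Kupffer cell and macrophage markers, 398 CPM against 215 and 163 CPM in its group. The HFD sums were 130.0 to 169 CPM. These markers were not uniform. Clec4f (190.0 against 89.2 and 67.2 CPM), Cd5l (171 against 88.4 and 66.4 CPM) and Vsig4 were at their highest of the group there. Adgre1 (7.85 against 8.02 and 6.99 CPM) lay between the other HFD+C2 libraries, and Cd68 was at its lowest of the group. The part of Kupffer cells and macrophages in the members' values was not tested. Without HFD+C2 replicate 1 the members' median was -0.17 with 23 of 32 below 0, Acacb stood at -1.29 and was called, and Fasn stood at -1.03 with an adjusted p of 0.0670. The estimates of these 2 genes were thus of like size without it, and the median over the members was nearer to 0. In the HFD group, which both compounds are compared with, replicate 2 was the lowest library for 19 of 32 (59.4%, against 36.7%); without HFD replicate 2 the median with C2 was -0.41.

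C1 and C2 were given at the same dose and for the same time, so the 1 pair of compounds could be compared directly, HFD+C2 against HFD+C1. Most lipogenic estimates were lower with C2, but none passed the test. With edgeR, 0 of 32 members and 0 of all 13229 genes tested were called (0%, with 4.60% at an unadjusted p under 0.05, 2.80% higher and 1.79% lower). DESeq2 also called 0 of 32 members. At an unadjusted p under 0.05 stood 5 members, all lower with C2. The median was -0.31, with 25 of 32 below 0, beside 0.01 for all genes tested, and the groups did not overlap for 4 members, all lower with C2 (12.0% of all genes, 5.96% higher and 6.09% lower).

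Pgd had the smallest p, with 30.9, 22.3 and 27.6 CPM in HFD+C1 and 15.5, 18.1 and 19.5 CPM in HFD+C2 (log2 difference -0.60, 95% interval -0.99 to -0.22, adjusted p = 0.841). Acacb measured 26.0, 9.05 and 23.1 CPM in HFD+C1, so that replicate 2 overlapped HFD+C2 (log2 difference -0.97, interval -1.74 to -0.19, adjusted p = 0.841). In HFD+C1, Fasn at 275, 90.4 and 296 CPM showed the same single low library (log2 difference -0.86, interval -1.74 to 0.01). Acss2 measured 26.0, 31.8 and 37.1 CPM in HFD+C2 (log2 difference -0.67, interval -1.22 to -0.12, adjusted p = 0.841).

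Me1 measured 283, 126 and 228 CPM in HFD+C1 and 152, 69.9 and 142 CPM in HFD+C2 (log2 difference -0.81, interval -1.60 to -0.01, adjusted p = 0.841). Fads1 measured 433, 190.0 and 264 CPM in HFD+C1 and 106, 167 and 234 CPM in HFD+C2 (log2 difference -0.81, interval -1.61 to -0.01, adjusted p = 0.841). These overlapped between the compounds. Scd1, with a log2 difference of 0.10 and an interval of -0.94 to 1.15, could not be told apart between the compounds within a range of about 2-fold each way. Without HFD+C1 replicate 2 the members' median difference was -0.47, with 29 of 32 below 0 and 0 called, and Acacb and Fasn stood at -1.31 and -1.24. Over the libraries left out in turn, Acacb ranged from -1.31 to -0.69, Fads1 from -1.11 to -0.42 and Me1 from -1.07 to -0.53. Acacb and Fads1 were nearest to 0 without HFD+C1 replicate 1, and Me1 without HFD+C2 replicate 2 (-0.54 without HFD+C1 replicate 1); without HFD+C1 replicate 1 or 3 the median was -0.20 or -0.22, and without HFD+C2 replicate 1 it was -0.24, with 21 of 32 below 0.

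Related genes give a setting for the members, and their lists too were drawn up with results of these data known. A list of 49 other lipogenic genes (further regulators, elongation partners, acyltransferases and sugar-handling enzymes) had 44 tested between the diets, of which 3 were called higher in HFD and 5 lower (2.59% and 3.44% of all genes), with a median log2 change of 0.03. Mogat1, an acyltransferase that makes diacylglycerol from monoacylglycerol, rose from at most 3.59 CPM in NCD to a median of 17.4 CPM in HFD, without overlap (log2 change 2.42, SE 0.41, adjusted p = 0.0241). Elovl3, an elongase of saturated and monounsaturated chains, fell from 987, 964 and 952 CPM in NCD to at most 421 CPM in HFD (log2 change -1.62, SE 0.24, adjusted p = 0.0163). Acsl4, an acyl-CoA synthetase that prefers arachidonate, fell from 173, 52.9 and 56.2 CPM to 16.1, 23.0 and 19.4 CPM (log2 change -2.25, SE 0.45, adjusted p = 0.0358). Elovl7 fell from 0.945 to 4.90 CPM in NCD to 0.0664 to 0.163 CPM in HFD, near the floor (adjusted p = 0.0305). In this list C1 and C2 gave 0 calls of 43 with edgeR (4 and 3 at an unadjusted p under 0.05, against 7.75% and 6.89% of all genes) and with DESeq2, with medians of 0.01 and -0.14; limma voom with library weights called 1, Mogat1, lower with C2.

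Cholesterol synthesis, which shares SREBP regulation with lipogenesis, differed from the members between the diets in its counts: edgeR called 15 of 24 genes lower and 0 higher (20 at an unadjusted p under 0.05, all lower), with a median of -1.36. Of all genes 3.44% were called lower by edgeR and 15.9% were lower at an unadjusted p under 0.05. DESeq2 called 20 of the list lower and 0 higher, beside 1365 of all 13864 genes lower. Sqle, squalene epoxidase, measured 75.4, 54.6 and 53.3 CPM in NCD and 2.36, 3.75 and 2.89 CPM in HFD (log2 change -4.33, SE 0.26, adjusted p = 0.000492). Pmvk, Fdps and Tm7sf2 followed with log2 changes of -2.15, -2.32 and -2.58 (adjusted p of 0.00395, 0.00431 and 0.00478). Under the compounds edgeR called 0 of 24 (9 at an unadjusted p under 0.05 with C1, all higher, and 4 with C2, all lower, against 7.75% and 6.89% of all genes), with medians of 0.44 and -0.27. With C1 the levels were high in replicate 1 above all: Fdps measured 289, 96.8 and 129 CPM in HFD+C1 and 107, 125 and 114 CPM in HFD, and Sqle 24.4, 5.12 and 6.32 CPM in HFD+C1. Between C2 and C1 the list had a median of -0.68, with 23 of 24 below 0 and 13 at an unadjusted p under 0.05, all lower (4.60% of all genes), and edgeR, DESeq2 and limma voom each called 0. Against HFD, DESeq2 and limma voom each called 1 gene of the list, Fdps, lower with C2, and 0 with C1.

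Of 26 fatty acid oxidation genes edgeR called 4 higher on the high-fat diet and 0 lower (8 at an unadjusted p under 0.05, 7 higher and 1 lower), with a median of 0.25. Of all genes 2.59% were called higher and 3.44% lower by edgeR, and 28.9% had an unadjusted p under 0.05, close to the share in this list. DESeq2 called 6 higher and 1 lower, beside 933 and 1365 of all 13864 genes, and limma voom 7 higher and 1 lower, beside 1551 and 1660. Cpt1a, the carnitine palmitoyltransferase that malonyl-CoA inhibits, measured 27.3, 87.1 and 81.7 CPM in NCD and 229, 254 and 211 CPM in HFD (log2 change 1.84, SE 0.39, adjusted p = 0.0399). Ppara, the fatty-acid-sensing nuclear receptor, had a log2 change of 1.13 (adjusted p = 0.0419), and Bdh1, an enzyme of ketone-body metabolism, one of 1.48 (adjusted p = 0.0420). With C1 and C2 edgeR, DESeq2 and limma voom called 0 of 26, with 1 each at an unadjusted p under 0.05 in edgeR and medians of 0.06 and -0.08. The difference between the lists was not tested.

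**Figure D4:**
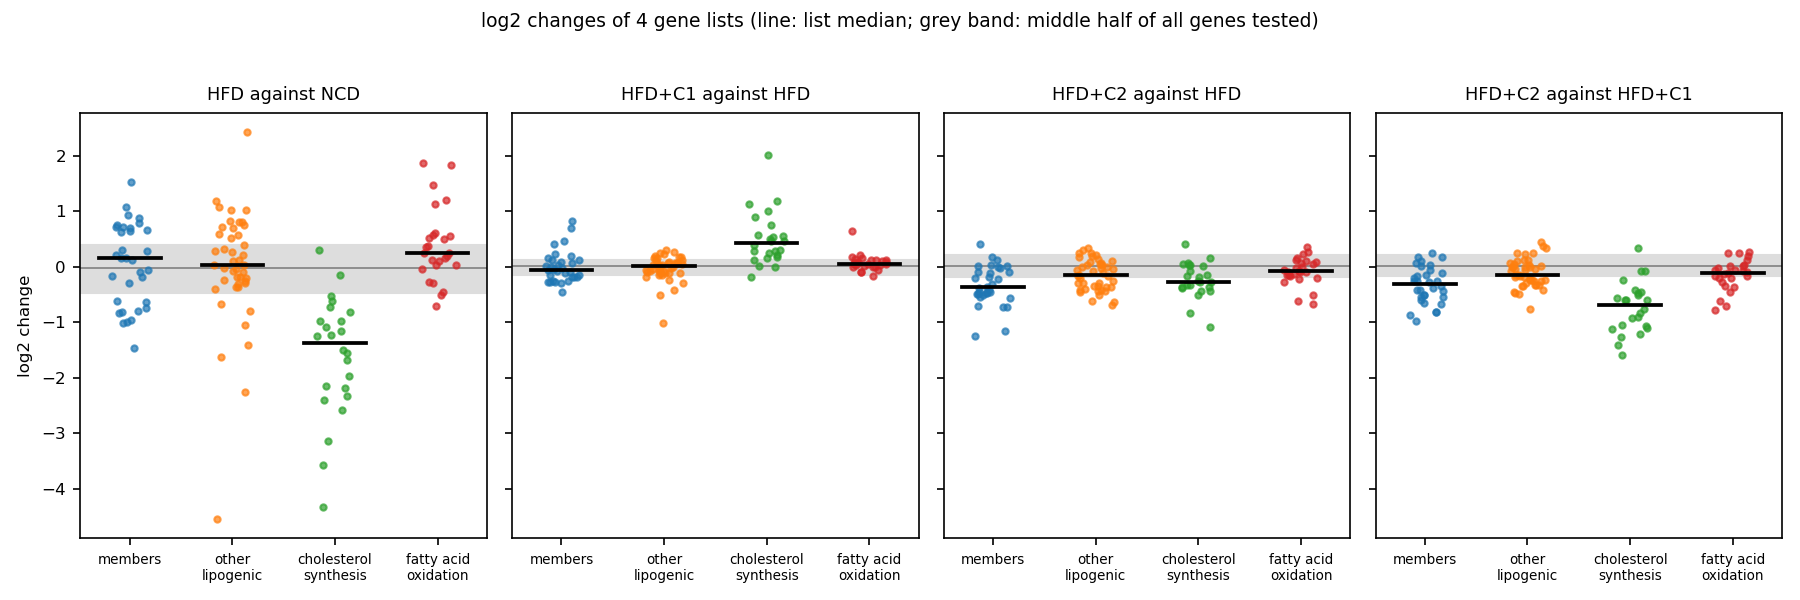
log2 change (vertical axis) of every tested gene of 4 lists, the lipogenic members, other lipogenic genes, cholesterol synthesis and fatty acid oxidation, in the 4 comparisons (panels); the black line is the list median and the grey band holds the central part of all genes tested, from the lower to the upper quartile. Between the diets cholesterol synthesis lies lowest, with a median of -1.36, while the members spread to both sides of 0 around 0.15; with C2 against HFD the members have the lowest of the list medians, -0.37, and with C2 against C1 cholesterol synthesis does, at -0.68 beside -0.31.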

How the data were processed

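Per the submitters' processing notes, the authors used Trimmomatic 0.39, STAR 2.7 and DESeq2 with the mm10 genome; annotation, strand use and filters are not given in the sources used here. The 3 deposited tables hold raw read counts per gene symbol, with identical HFD columns (0 values differ) and 0 columns left unmapped; 4 rows that name no gene, with 27.3% to 58.2% of each library's reads, were kept out. Each comparison used its own 6 libraries, and genes averaging 10 counts or more there were tested with edgeR 4.0.16 (quasi-likelihood test, TMM scaling, R 4.3.3), without covariates, and p-values were adjusted over all genes tested by Benjamini-Hochberg; the SE was the log2 change over the root of F. The test was checked on simulated data. Intervals and floors cover the spread between libraries or counting error only; read counts are not independent molecules. Replicate numbers were not taken as pairs. The members and gene lists were chosen with earlier results of these data known. All 33 members are accounted for, with full statistics for those called and for the 5 with the smallest p in each comparison, and up to 4 called genes of each other list, of which 1 is not reported here. Alternatives were DESeq2 1.42.0, median-ratio and total-count scaling, no filter, a mean of at least 50 counts, all 12 libraries in one fit, the replicate number as a block, leaving out each library and, added after seeing the data, limma 3.58.1 voom with library weights. Exon lengths came from GENCODE M21 (GRCm38) and promoters from RefSeq (GRCm38.p6), where 27 of 33 members matched.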

Additional observations from a re-analysis of the deposited data

How the results depend on the processing

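For the 20 named pairs of a gene and a comparison, chosen for a call or a small p, 238 of 279 alternative values kept their side of the threshold, 27 lost a call and 14 gained one. Most of these pairs were not called in the main fit. The called ones, Acsl3, Elovl5, Mlxipl and Fads2 between the diets, kept the call in 8, 7, 8 and 6 of 14 alternatives each, and all 27 losses were theirs. The cause was not tested. Total-count scaling turned the sign of 10 other member estimates over the 4 comparisons, each under 0.2 from 0. Between the diets 836 genes and 4 members were called; this became 2298 and 13 with DESeq2, 4493 and 15 without a filter, 2418 and 7 with all 12 libraries in one fit, and 3211 and 17 with limma voom and library weights, and a mean of at least 50 counts gave 524 genes. Of the main calls, Elovl5 and Fads2 were lost with all 12 libraries, Acsl3 and Mlxipl without a filter, and Fads2 at a mean of 50 counts. Total-count scaling gave 241 genes higher and 864 lower, against 359 and 477. Leaving out single libraries gave 23 to 1838 genes and 0 to 14 members; genes numbered 1838, 1276 and 487 after removal of NCD replicates 1, 2 and 3 in turn, and 23, 131 and 25 after removal of those of HFD. For C1, 7 genes became 77 with DESeq2, 206 without a filter, 0 with all 12 libraries (313 at an unadjusted p under 0.05) and 50 with limma voom, and 2 to 102 without single libraries (102 without HFD replicate 2); 1 member, Scd1, was called lower without a filter, and 0 to 0 without single libraries. For C2, 3 genes became 35 with DESeq2, 152 without a filter, 0 with all 12 libraries (728 unadjusted) and 54 with limma voom, and 0 to 27 without single libraries (27 without HFD+C2 replicate 1); 2 members, Acacb and Fasn, were called with DESeq2, without a filter and with limma voom (2 each), and 0 to 1 without single libraries. For C2 against C1, 0 genes became 3 with DESeq2, 162 without a filter and 0 to 1 without single libraries; 4 members, Acacb, Fads1, Fasn and Me1, were called lower without a filter. Same-numbered libraries correlated in their deviations between -0.22 and 0.28, so the numbers were not taken to pair the samples. With the replicate number as a block, 483 genes and 0 members were called between the diets, 36 and 0 for C1, 3 and 0 for C2, and 0 and 0 for C2 against C1. Own numbers correlated best for replicate 2 between the diets and for replicate 2 with C1 against HFD. They did so for no replicate with C2 against HFD, and for replicates 1 and 3 with C2 against C1. Counts were few for Pnpla3, Scd2, G6pdx and Gpat3, whose lowest library held 2 to 13.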
